A study of Mus musculus with 8 samples.

Results

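The endocannabinoid system of the striatum was followed through 7 genes: Cnr1, which encodes the CB1 cannabinoid receptor, and the enzyme genes Dagla, Daglb, Mgll, Abhd6, Napepld and Faah. Members were chosen by gene symbol, and each probe set assigned to exactly 1 of these genes was kept, which gave 13 of the 45037 non-control probe sets on the array, or 7 of 18193 genes. RNA came from the striatum of 8 mice aged 22 months of the strain C57BL/6 X CBA F1 hybrid, and each mouse gave 1 Affymetrix mouse genome array. The CHL2 mutant group (Q150/Q150) held females 141, 153 and 154 and male 191, and carried 150 CAG repeats, taken from exon 1 of the human Huntington's disease gene, in both copies of the mouse's own Htt gene. The wild-type group held female 161 and males 170, 180 and 200. The comparison addresses which of these transcripts differ in striatum when old mice carry the expansion. All animals were of 1 age, so onset cannot be read from these arrays.

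CB1 is a G protein-coupled receptor that sits mainly on nerve terminals and lowers transmitter release when activated. Its ligands are lipids made on demand by the cell on the other side of the synapse: 2-arachidonoylglycerol (2-AG), made by the diacylglycerol lipases Dagla and Daglb, and anandamide, made in part by Napepld. Mgll and Abhd6 hydrolyse 2-AG, and Faah hydrolyses anandamide. In striatum the receptor is abundant in medium spiny neurons, the output cells that degenerate in Huntington's disease, and on their terminals in pallidum and nigra.

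Values are log2 intensities per probe set, summarised by the authors with RMA, and a difference of 1 is a doubling. Array medians lay between 4.95 and 4.98, and pairs of arrays correlated at r = 0.990 to 0.996 within the groups. Wild-type 170 stood apart in RNA quality. The 3' minus 5' difference of its Gapdh control probe sets was 1.37, while the mutants lay at 0.32 to 0.43 and the remaining wild-type animals at 0.32 to 0.34. The same measure of beta-actin was 2.65 in this mouse, at 1.23 to 1.51 in the mutants and at 1.36 to 1.43 in the remaining wild-type animals. The striatal identity of the tissue was clear from its markers, with Ppp1r1b, the dopamine-regulated phosphoprotein DARPP-32 of medium spiny neurons, at 10.94 to 11.22 in mutants and 11.99 to 12.22 in wild-type mice. Only 4 mice per group limit the precision of all values.

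The 250 bases before an annotated transcription start are shown for both genes with the largest falls, Cnr1 and Mgll, and for Faah, which rose. They come from RefSeq (build GRCm38.p6), in which 6 of the 7 members were found, and are written 5' to 3' on the strand of the gene, with capitals marking the GC box, GGGCGG or its reverse complement CCGCCC, a site of Sp1 family factors. The Cnr1 window lies at chr4:33924014-33924263 (+), before the first of 3 starts listed. The Mgll window lies at chr6:88724162-88724411 (+), before the first of 2 starts, and the Faah window at chr4:116017925-116018174 (-).
Cnr1: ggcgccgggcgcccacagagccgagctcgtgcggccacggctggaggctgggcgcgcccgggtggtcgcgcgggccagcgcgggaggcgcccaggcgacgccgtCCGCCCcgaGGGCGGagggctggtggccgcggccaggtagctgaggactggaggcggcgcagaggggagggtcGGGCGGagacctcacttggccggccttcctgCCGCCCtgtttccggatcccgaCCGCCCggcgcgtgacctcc
Mgll: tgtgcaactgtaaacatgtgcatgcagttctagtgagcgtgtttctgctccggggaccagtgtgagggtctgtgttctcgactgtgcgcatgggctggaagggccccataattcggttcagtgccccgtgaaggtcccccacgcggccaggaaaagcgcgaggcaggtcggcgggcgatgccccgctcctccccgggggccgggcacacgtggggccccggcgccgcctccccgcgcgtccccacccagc
Faah: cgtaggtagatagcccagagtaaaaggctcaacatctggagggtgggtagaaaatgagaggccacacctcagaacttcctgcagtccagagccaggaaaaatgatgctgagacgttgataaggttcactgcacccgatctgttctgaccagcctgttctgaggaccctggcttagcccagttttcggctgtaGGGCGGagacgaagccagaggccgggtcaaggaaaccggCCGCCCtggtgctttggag
The Cnr1 window held 5 GC boxes at a G and C content of 79.2%, the Mgll window 0 at 68.0% and the Faah window 2 at 55.6%. At least 1 GC box was found in 32.7% of 32851 such windows of mouse genes, 5 or more in 1.93%, and the median G and C content was 52.4%. The windows before the second and the last Cnr1 start held 0 GC boxes, and that before the second Mgll start held 1. The cyclic AMP response element half-site TGACG, searched on both strands, matched 0 of the 10 member windows against 17.8% of all windows, and the E-box CACGTG matched 1 Cnr1 and 1 Mgll window against 6.02% of all. None of the GC boxes overlapped another of these motifs. The arrays measure transcript level only, so factor binding at these windows was not tested.

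Receptor and enzymes did not move as 1 block. Cnr1 fell to 33.5% of its wild-type level (sex-adjusted), Dagla and Mgll fell by less, Faah rose, and Daglb, Napepld and Abhd6 did not pass the test. At an adjusted p under 0.05 in limma, 5 of the 13 member probe sets differed between the genotypes, against 6.70% of all probe sets tested: 4 were lower, against 3.44% of all, and 1 was higher, against 3.26%. By the brightest probe set of each gene, 4 of 7 genes were called, against 9.27% of 18193 genes: 3 were lower, against 4.73%, and 1 was higher, against 4.54%. The groups did not overlap for the same 4 genes, against 20.7% of all genes. The median log2 change of the 13 probe sets was -0.24, against 0.00 for all probe sets. Because the members were chosen with earlier results of these data known, these shares do not test whether the members changed more often than other genes.

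**Figure D1:**
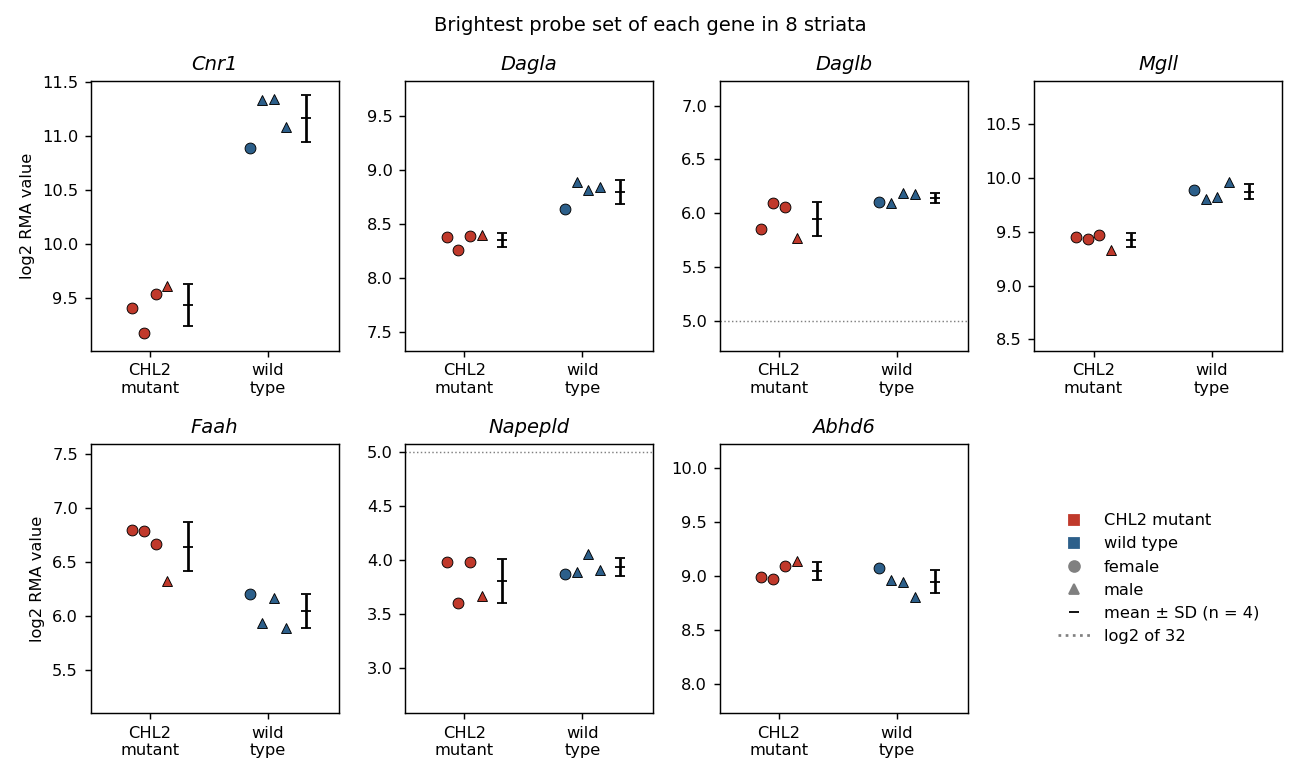
Log2 RMA values (vertical axes, all of equal span) of the brightest probe set of each of the 7 genes in 4 CHL2 mutant and 4 wild-type striata, with circles for females, triangles for males and bars for mean ± SD. The groups are separated for Cnr1, Dagla, Mgll and Faah and overlap for Daglb, Napepld and Abhd6.

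Cnr1 showed the widest separation. Its brightest probe set, 1434172_at, read 9.41, 9.17, 9.53 and 9.61 in mutants 141, 153, 154 and 191, against 10.89, 11.33, 11.34 and 11.08 in wild-type mice 161, 170, 180 and 200. Every mutant lay below every wild-type mouse, with a gap between the groups wider than the range within either group. Group means were 9.43 ± 0.19 in mutants and 11.16 ± 0.22 in wild-type mice (SD, n = 4 each). The sex-adjusted log2 change was -1.58 (SE 0.12, 95% interval -1.84 to -1.32, adjusted p = 0.00012), which is 2.99-fold lower. Among the 18193 genes only 19 had a larger fall. Within females the 3 mutants averaged 1.52 log2 units below wild-type 161, a difference of -1.52, and within males mutant 191 stood at -1.64 relative to the 3 wild-type mice. The call held under all 26 alternatives computed, and the change was -1.56 without wild-type 170.

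The other Cnr1 probe set, 1419425_at, read near background, at 4.57 to 5.04 in mutants and 4.92 to 5.27 in wild-type mice, and 4 of its 8 values lay under 5, the log2 of 32. Its change had the same direction but was small (log2 change -0.26, 95% interval -0.56 to 0.03, adjusted p = 0.334), and it was called in 1 alternative, without mutant 141 and without sex (-0.40, adjusted p = 0.0458). When both probe sets were averaged the change of Cnr1 was -0.92 (adjusted p = 0.000364). The size of the fall thus rests on 1 probe set.

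Of the enzymes that make 2-AG, Dagla is the main one of adult brain and sits opposite CB1-bearing terminals. It read 8.38, 8.26, 8.39 and 8.40 in mutants 141, 153, 154 and 191, against 8.65, 8.90, 8.82 and 8.84 in wild-type mice 161, 170, 180 and 200. The groups did not overlap, and the lowest wild type was female 161. Dagla was 1.30-fold lower (log2 change -0.38, SE 0.09, adjusted p = 0.0286). The call was lost without mutant 191 (-0.30, adjusted p = 0.318) and without wild-type mice 161 (-0.45, adjusted p = 0.127), 180 (-0.38, adjusted p = 0.0588) or 200 (-0.38, adjusted p = 0.0656), and was kept in all 8 of these omissions when sex was left out of the fit.

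Daglb, the paralogue with a larger role outside the brain, overlapped between the groups. It lay between 5.77 and 6.10 in mutants and between 6.10 and 6.19 in wild-type mice. The log2 change of -0.24 had a 95% interval of -0.47 to -0.02 and did not pass after adjustment over all probe sets (adjusted p = 0.225). A fall of up to 1.39-fold is within that interval, so the data do not show that Daglb was level.

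Mgll encodes monoacylglycerol lipase, the main 2-AG hydrolase of brain, found in nerve terminals and in astrocytes. Its brightest probe set, 1426785_s_at, read 9.45, 9.44, 9.47 and 9.33 in mutants 141, 153, 154 and 191, against 9.89, 9.81, 9.82 and 9.96 in wild-type mice 161, 170, 180 and 200. The mutants lay close together, and all lay below all wild-type mice. The level was 1.40-fold lower (log2 change -0.48, SE 0.08, adjusted p = 0.00835). Probe set 1450391_a_at fell as well (log2 change -0.42, adjusted p = 0.0192), but its profile over the 8 mice departed from that of 1426785_s_at by 0.042 log2 units (root mean square), so both give nearly the same reading rather than 2 independent ones.

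Probe set 1453836_a_at of Mgll reached at most 8.34 in mutants and at least 8.33 in wild-type mice, a narrow overlap, and did not pass (log2 change -0.25, adjusted p = 0.29). The fourth, 1431331_at, had all 8 values under 5 and a log2 change of 0.07 (adjusted p = 0.786), and it was designed on the same accession as 1453836_a_at. With all 4 averaged, the change of Mgll was -0.27 (adjusted p = 0.0396). The call of 1426785_s_at was lost without mutant 191 (-0.44, adjusted p = 0.149) and without wild-type 161 (-0.53, adjusted p = 0.0785), and was kept without either when sex was left out. Without wild-type 170 the changes of Mgll and Dagla were -0.50 (adjusted p = 0.0107) and -0.36 (adjusted p = 0.0412).

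Abhd6, a second 2-AG hydrolase located on the postsynaptic side, stayed close between the groups. Its brightest probe set read 8.99, 8.97, 9.10 and 9.14 in mutants 141, 153, 154 and 191, against 9.07, 8.97, 8.94 and 8.81 in wild-type mice 161, 170, 180 and 200. These ranges overlapped, and the log2 change was 0.09 (95% interval -0.13 to 0.31, adjusted p = 0.71). The other Abhd6 probe set gave -0.10 (95% interval -0.36 to 0.17, adjusted p = 0.747). The interval of the brightest probe set reached 1.24-fold higher, so a small rise is not excluded by these 8 arrays.

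On the anandamide side, Faah, fatty acid amide hydrolase, moved against the other called members. Its brightest probe set, 1421969_a_at, read 6.80, 6.78, 6.66 and 6.32 in mutants 141, 153, 154 and 191, against 6.20, 5.93, 6.17 and 5.89 in wild-type mice 161, 170, 180 and 200. The groups did not overlap, and the lowest mutant was the male and the highest wild type the female. The level was 1.35-fold higher (log2 change 0.44, SE 0.10, adjusted p = 0.0364). Within females the difference was 0.55 and within males 0.32.

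This call was the least firm of the 4. With sex in the fit it was lost when any mouse but wild-type 180 was left out (adjusted p from 0.0512 without 170 to 0.397 without 161), and it was lost in 3 alternatives that kept all mice. The other Faah probe set, 1434091_at, had all 8 values under 5 (log2 change -0.13, adjusted p = 0.632), and on the mean of both the change was 0.15 (adjusted p = 0.281). With sex left out the log2 change was 0.59 (adjusted p = 0.0108) and the call was kept without each mouse in turn.

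Napepld, a phospholipase that releases anandamide and related lipids from membrane precursors, had 1 probe set with all 8 values under 5. It lay between 3.60 and 3.98 in mutants and between 3.87 and 4.06 in wild-type mice, with a log2 change of -0.15 (95% interval -0.43 to 0.12, adjusted p = 0.59). At this signal a change in Napepld was not detectable.

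**Figure D2:**
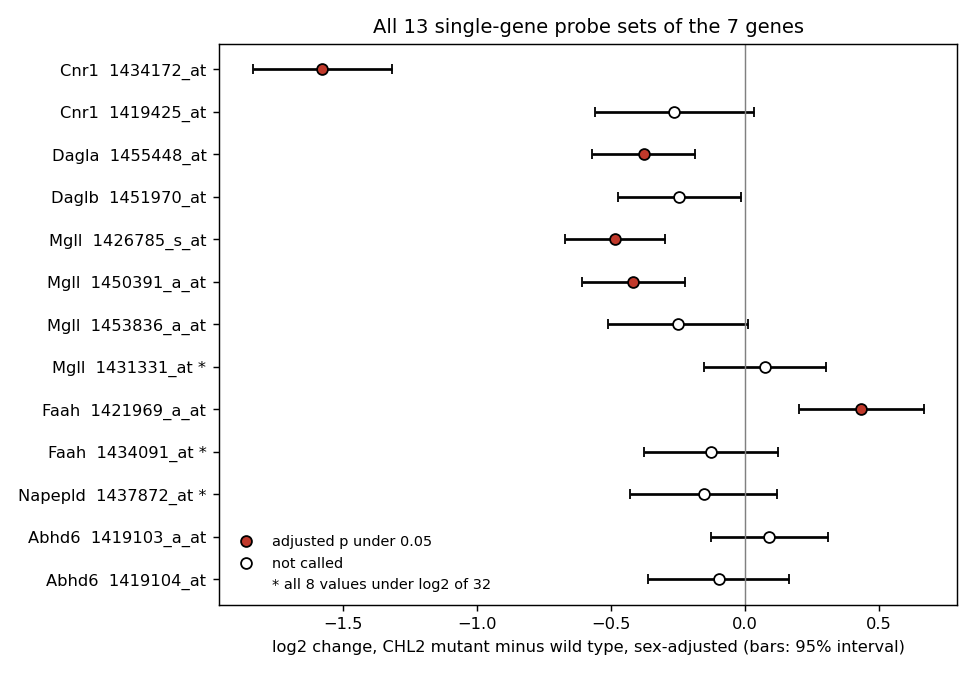
Sex-adjusted log2 change (horizontal axis, CHL2 mutant minus wild type) with its 95% interval for the 13 probe sets, filled where the adjusted p was under 0.05. Cnr1 1434172_at stands at -1.58, 3 other called falls lie between -0.48 and -0.38, and Faah 1421969_a_at is the single called rise at 0.44.

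Whether synthesis and breakdown changed unequally was asked from the difference of 2 genes' brightest probe sets within each mouse, with two-sided exact permutation tests (70 possible assignments, smallest possible p 0.0286) and adjustment over 3 pairs. For Dagla and Mgll, the maker and the main hydrolase of 2-AG, the groups overlapped: the difference was -1.06 ± 0.10 in mutants and -1.07 ± 0.14 in wild-type mice (SD, n = 4 each), a shift of 0.01 (exact permutation p = 0.943). The hydrolases Abhd6 and Mgll changed unequally. Their difference ran from -0.47 to -0.19 in mutants and from -1.15 to -0.82 in wild-type mice, a shift of 0.55 without overlap (exact permutation p = 0.0286, adjusted p = 0.0429). These tests hold no term for sex. With sex in the fit the log2 change was -0.38 for Dagla and -0.48 for Mgll, so the shift of 0.01 does not show that both fell equally. For Napepld and Faah, the remaining pair adjusted for, the shift was -0.72, but with all Napepld values under 5 it holds little beyond the rise of Faah and is not read as a difference between the genes. Such differences bear on unequal change and not on which transcript was more abundant. With each gene's probe sets averaged, all 3 pairs had an adjusted p of 0.0571, with a shift of -0.20 for Dagla and Mgll.

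Females and males were compared in the same fit. None of the 13 probe sets differed between the sexes at an adjusted p under 0.05, against 0.0311% of all, and 2 did so at an unadjusted p under 0.05, against 8.38% of all. These were Cnr1, with females 0.30 log2 units below males (a difference of -0.30, adjusted p = 0.545 in limma), and Faah, with females higher by 0.32 (adjusted p = 0.514 in limma). The genotype difference itself did not differ between the sexes for any member in a limma fit with an interaction term (0 of 13 at an adjusted p under 0.05 and 0 of 13 at an unadjusted p under 0.05, against 4.04% of all at the latter). With 1 female wild-type and 1 male mutant mouse that test is weak.

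Around the 7 members, 4 lists of related genes were read, of which 44 of 48 genes were measured: 3 were higher, 3 lower and 38 were not called. By the leading probe set 4.54% of all genes were higher and 4.73% lower, so the counts over these lists were near those of all genes. The receptors and phospholipases that feed 2-AG synthesis held the 3 falls among 11 genes, with a list median of 0.04. Grm5, the glutamate receptor mGluR5 whose activation drives 2-AG production, lay at 10.18 to 10.41 in mutants and 10.93 to 11.17 in wild-type mice, 1.61-fold lower (log2 change -0.69, adjusted p = 0.00235). Plcb1, a phospholipase C that makes the diacylglycerol precursor, was 1.50-fold lower (log2 change -0.58, adjusted p = 0.00991), and Chrm1, the M1 muscarinic receptor, 1.44-fold lower (log2 change -0.53, adjusted p = 0.0228). For all 3 the groups did not overlap, as for 20.7% of all genes. The groups were also apart, with mutants higher, for Gnaq (0.27, adjusted p = 0.0933), Plcb4 (0.32, adjusted p = 0.164) and Chrm3 (0.12, all 8 values under 5). None of these was called, and they were named after their values were seen. Without mutant 191 the calls of Grm5, Plcb1 and Chrm1 were lost, with log2 changes of -0.63, -0.51 and -0.34 in that order. Without wild-type 161 the call of Plcb1 was lost (adjusted p = 0.083), and that of Chrm1 was lost in 8 of 26 alternatives, among them that with its probe sets averaged (-0.38, adjusted p = 0.118).

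CB1 receptor partners and transducers included 2 rises and 0 falls among 10 genes, with a list median of 0.09, where 4.54% of all genes were higher. Cnrip1, a protein that binds the tail of CB1, lay at 8.87 to 9.31 in mutants and 8.33 to 8.63 in wild-type mice, 1.41-fold higher (log2 change 0.49, adjusted p = 0.0163). Gprasp1, which sorts receptors towards lysosomes, lay at 12.07 to 12.16 in mutants and 11.58 to 11.65 in wild-type mice, 1.42-fold higher (log2 change 0.50, adjusted p = 0.0052). Both were thus opposite in direction to the receptor gene. Both calls were lost without mutant 191 (adjusted p = 0.119 and 0.0693) and without wild-type 161 (adjusted p = 0.218 and 0.0995), with log2 changes between 0.43 and 0.56. The call of Cnrip1 was also lost without moderation (adjusted p = 0.0587), and with its probe sets averaged its change was smaller, at 0.29 (adjusted p = 0.0265).

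Of 18 other genes of endocannabinoid metabolism, 1 rose and 0 fell, near the 4.54% of all genes called higher, with a list median of 0.01. This was Gdpd1, a lysophospholipase D of another route to anandamide, at 8.12 to 8.50 in mutants and 7.86 to 8.05 in wild-type mice (log2 change 0.43, adjusted p = 0.0205), a call lost in 11 of 26 alternatives, among them the fit without sex (0.32, adjusted p = 0.0639). None of 5 other cannabinoid-related receptors was called. The lowest adjusted p among them was that of Ppara, a nuclear receptor for anandamide-related lipids (log2 change -0.14, adjusted p = 0.64), and 4 of the 5 had all 8 values under 5.

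**Figure D3:**
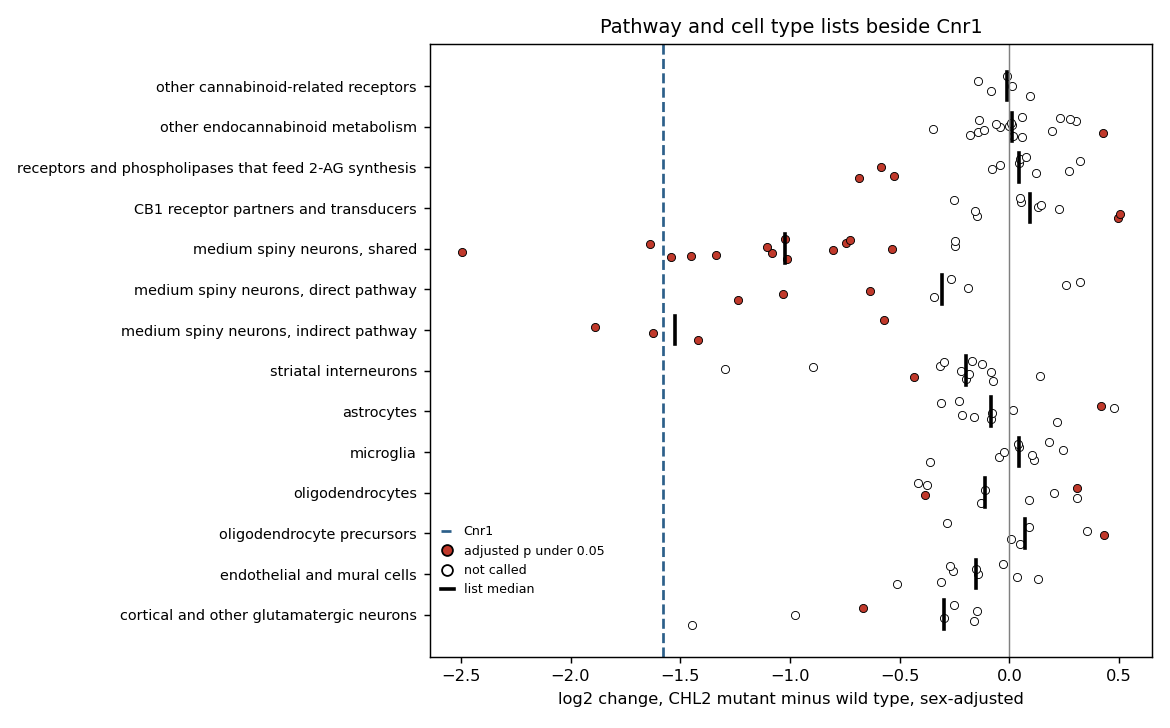
Sex-adjusted log2 change (horizontal axis, CHL2 mutant minus wild type) of each measured gene in 4 pathway lists and 10 cell type lists, filled where the adjusted p was under 0.05, with list medians as bars and Cnr1 as the dashed line. Cnr1, at -1.58, lies among the medium spiny neuron markers and beyond every called gene of the 4 pathway lists.

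Medium spiny neuron markers, shared or of the indirect pathway, mostly fell as Cnr1 did, while fewer of the direct pathway were called. Of 15 measured markers shared by medium spiny neurons, 13 were lower, against 4.73% of all genes, and 0 higher. Their median log2 change was -1.02. Their mean centred level per mouse ran from -0.68 to -0.46 in mutants and from 0.48 to 0.62 in wild-type mice. Scn4b, a sodium channel subunit, was 5.63-fold lower and Ppp1r1b 2.02-fold lower. Of 6 indirect pathway markers 4 were measured, and all 4 fell, against 4.73% of all genes, with a median of -1.52. Among them were Penk (enkephalin) at 3.09-fold and the dopamine receptor gene Drd2 at 2.68-fold lower. Direct pathway markers fell in 3 of 8 cases, against 4.73% of all genes, with a median of -0.31. Among them was Drd1, another dopamine receptor gene, at 2.36-fold lower. The other called genes of both pathway lists, named after their values were seen, were Gpr6 and Plxdc1 (indirect) and Pdyn and Slc35d3 (direct). In the direct list Eya1 and Isl1, also named after their values were seen, stood at 0.32 (adjusted p = 0.0997) and 0.26 (adjusted p = 0.166). Tac1, named likewise, stood at -0.34 (adjusted p = 0.0568), and Chrm4 had all 8 values under 5. The fall of Cnr1 was thus larger than the median of the shared list and close to that of the 4 measured indirect markers. This comparison is given as values without a test. In RNA from whole striatum, fewer cells of a type and less RNA per cell cannot be told apart, and the part of these cells in the fall of Cnr1, Dagla or Mgll was not tested.

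CB1 is also carried by interneurons and by cortical afferents, and Mgll also by astrocytes. Of 13 interneuron markers 1 was lower, against 4.73% of all genes: the nitric oxide synthase gene Nos1 (log2 change -0.43, adjusted p = 0.0252). Sst, the somatostatin gene, gave -0.07 (adjusted p = 0.763), and the list's median was -0.20. Cck stood at -1.29 (adjusted p = 0.125) and Vip at -0.90 (adjusted p = 0.159), both with overlapping groups. Group means in mutants and wild-type mice were 7.05 and 7.65 for Cck and 4.90 and 5.41 for Vip. These lay closer than the sex-adjusted changes. Only Pvalb had a positive change, 0.14 (adjusted p = 0.844). These 3 were named after their values were seen. In 2 of the 13, Chat and Slc5a7, all 8 values lay under 5. Of 10 astrocyte markers 1 was higher, S100b (log2 change 0.42, adjusted p = 0.0191), against 4.54% of all genes, with Aqp4 at 0.22 (adjusted p = 0.262). The astrocyte list's median was -0.08, with Gfap at 0.48 (adjusted p = 0.0631) and Sox9 at -0.31 (adjusted p = 0.101). Gfap and Sox9 were named after their values were seen. The list scores of -0.08 to 0.07 in mutants and -0.07 to 0.08 in wild-type mice overlapped. Of 9 oligodendrocyte markers 1 was higher, against 4.54% of all genes, and 1 lower, against 4.73%. These were Opalin (0.31, adjusted p = 0.0408) and Mobp (-0.38, adjusted p = 0.0444, named after its value was seen), with Mbp at -0.13 (adjusted p = 0.531). Of 6 precursor markers 1 was higher, against 4.54% of all genes: Olig1 (0.43, adjusted p = 0.0329), with Pdgfra at 0.05. None of 9 microglial or 9 endothelial and mural markers was called, with Aif1 at -0.36 (adjusted p = 0.0906) and Cldn5 at -0.51 (adjusted p = 0.136) the nearest.

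Transcripts of cortical and other glutamatergic neurons varied inside both groups. The list's score ran from -0.76 in mutant 191 to 0.74 in mutant 154, and from -0.22 to 0.51 in wild-type mice. Slc17a7, a glutamate transporter of such cells, lay between 4.59 and 8.04 in mutants and between 6.15 and 7.88 in wild-type mice. Its sex-adjusted log2 change was -1.45 (adjusted p = 0.0985). The group means, at 6.46 in mutants and 6.98 in wild-type mice, lay much closer than that. Of 7 markers 1 was called lower, against 4.73% of all genes: Fezf2 (log2 change -0.67, adjusted p = 0.0333). The Fezf2 groups overlapped, at 4.33 to 5.21 in mutants and 4.93 to 5.54 in wild-type mice. Their means of 4.90 and 5.29 also lay closer than the sex-adjusted change. Of its 8 values 3 lay under 5. In 2 other markers, Slc17a6 and Tbr1, all 8 values lay under 5. The part of such transcripts in the change of Cnr1 was not tested.

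By the root mean square difference of the centred log2 values over the 8 mice, the 5 genes of 18192 most like Cnr1 were Ptprv (0.16), Strn (0.17), Rgs4 (0.18), Dmkn (0.18) and Penk (0.18). Their log2 changes lay between -1.63 and -1.36. The nearest of the other members was Dagla, at 0.65, and the farthest Faah, at 1.20. With groups as far apart as those of Cnr1, this distance depends mostly on the size of the genotype change. The similar changes of the nearest genes and the order of the members thus follow largely from the measure and are not separate results.

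**Figure D4:**
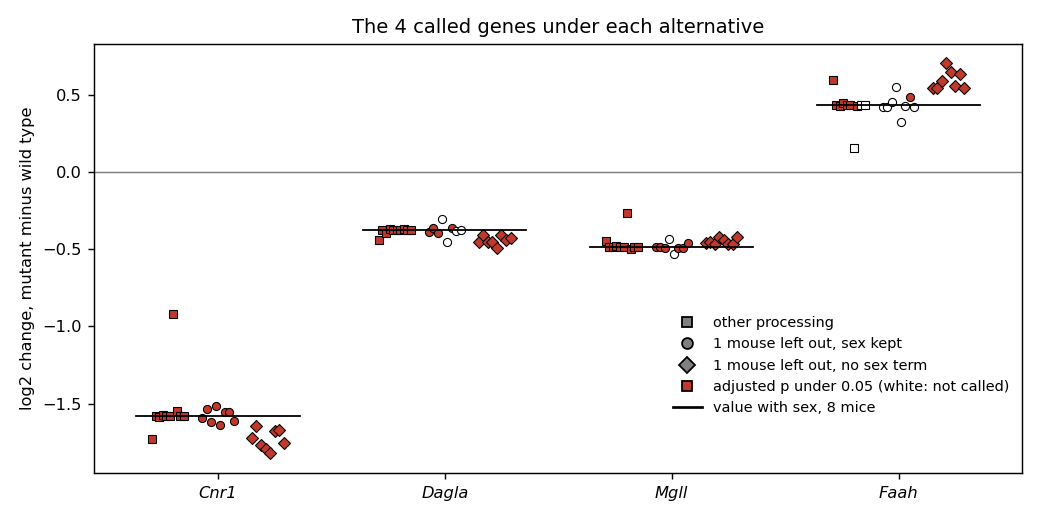
Log2 change (vertical axis, CHL2 mutant minus wild type) of the 4 called genes under each alternative, with squares for other processing, circles for 1 mouse left out with sex in the fit and diamonds for 1 mouse left out without sex, filled where the adjusted p was under 0.05. Cnr1 stays called throughout, between -1.82 and -0.92, while Dagla, Mgll and Faah hold their sign but lose the call in 4, 2 and 10 of 26 alternatives.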

How the data were processed

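Each deposited value is the log2 intensity of 1 probe set on 1 array, made by the authors with RMA (affy), per the submitters' processing notes. Software versions were not given in the sources used here, nor was it stated which arrays were normalized jointly. This method forces arrays to 1 distribution and compresses changes of dim probe sets. Of 45101 probe sets, 64 controls were left out, and 34945 of the rest had 1 gene symbol in the platform annotation.

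All 45037 were fitted with limma 3.58.1 (lmFit, eBayes) in R 4.3.3, with genotype and recorded sex as terms and Benjamini-Hochberg adjustment over all. Calls are at an adjusted p under 0.05. Each gene is led by its probe set with the highest mean. Log2 changes are mutant minus wild type. With sex in the fit, mice 161 and 191, alone of their sex in their groups, weigh more than the others. The fit was run on simulated data whose added changes were all larger than those of Dagla, Mgll and Faah. That run therefore does not bear on changes of their size. The labels' mouse numbers name separate animals.

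The 7 members, the gene lists and the tests were chosen with earlier results of these data known. Genes named are the members, up to 5 called genes of each pathway list (or the lowest adjusted p), up to 2 of each cell type list, and the 5 most like Cnr1. Values for lists are counts and medians without a list test. A list's score is the mean of its members' log2 values centred over the 8 mice. Alternatives were a fit without sex, other priors, normalizations, filters, probe set rules, a floor at log2 of 32, and each mouse left out. The list counts under these, and another prior for the sex and interaction tests, were added after seeing the data.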

Additional observations from a re-analysis of the deposited data

Results flagged for a closer look

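Dagla in mutant 153, at 8.26, was the single value among 26 tested combinations of probe set and group that lay far from the other 3 of its group: the gap to the next value was 0.890 of the group's range, above the 95% limit of Dixon's test. The group's whole range was narrow (8.26 to 8.40), chance marks about 5% of such groups, and the change of Dagla was -0.36 without this mouse (adjusted p = 0.0429).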

How the results depend on the processing

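No paired analysis was possible because the groups share no mouse numbers. The call and direction of Cnr1 were kept in all 26 alternatives (-1.82 to -0.92). With 1 mouse left out and sex kept, log2 changes lay between -0.45 and -0.30 for Dagla, -0.53 and -0.44 for Mgll, 0.32 and 0.55 for Faah and -0.0555 and 0.24 for Abhd6. Faah was not called on the mean of probe sets (0.15), without moderation (0.44) or with a floor at log2 of 32 (0.44), and Abhd6 turned to -0.0036 on the mean of probe sets. Member probe sets called lower numbered 1 to 4 and those called higher 0 to 1 with a mouse left out and sex kept, and 4 to 5 and 1 without sex. The higher count was 0 on the mean of probe sets, without moderation and with the floor, and at a threshold of 0.01 it was 0 with 2 lower. All probe sets called higher numbered 1468, or 207 to 1479 with a mouse left out and sex kept (1087 to 1530 without sex), 910 on gene means, 736 without moderation and 907 with the floor. Those called lower numbered 1551, or 445 to 1634 (1521 to 1945), 981, 765 and 899 in the same order. Pathway genes called higher numbered 0 to 3 with a mouse left out and sex kept, 2 to 5 with a mouse left out and no sex term, and 5 without sex. Those called lower numbered 0 to 3 with a mouse left out and sex kept, 2 to 3 without sex, and 1 without moderation. The shift of Dagla against Mgll lay between -0.0524 and 0.0583 with a mouse left out and was -0.20 on the mean of probe sets, where Napepld against Faah was -0.41 and Abhd6 against Mgll 0.27. In fits without sex, the dim second probe set of Faah turned to 0.0205 without 141, 0.000924 without 191 and 0.0530 without 161, and the second of Abhd6 to 0.000115 without 170. The cause of these shifts was not tested. Signal near background limits Napepld and the second probe sets of Cnr1 and Faah.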
